A study of Homo sapiens with 18 samples.

Results

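The epidermal growth factor (EGF) receptor system was followed through 8 genes, picked by symbol from the 56269 genes of the deposited table. They were the receptors EGFR and ERBB2, the ligands HBEGF, AREG, EREG, TGFA and NRG1, and the receptor inhibitor ERRFI1. The cells were IMR90, a single line of human lung fibroblasts, sequenced as polyA RNA in 18 libraries, 3 in each of 6 groups. Before anything else the cells received 1 of 3 pre-incubations for 6 h: PBS, the vehicle, or 20 µg/ml of hyaluronan (HA) purified from cultured naked mole-rat skin fibroblasts, given either intact (cNSF-HA) or cut by hyaluronidase (fNSF-HA). In 3 groups RNA was taken at the end of the pre-incubation. In the other 3 groups any HA was then removed. The cells were exposed to 200 µM tert-butyl hydroperoxide (tBHP), an organic peroxide that oxidizes cells, for 1 h. RNA was taken 6 h after the exposure began. A comparison with against without tBHP therefore also holds the 6 h of further culture and, in the HA groups, the removal of HA. The peroxide, the added time and the removal cannot be told apart. The libraries of a group were described as biological replicates of this 1 line, so the p-values below measure the spread between its cultures.

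EGFR is a tyrosine kinase at the cell surface. Ligands bind it after membrane proteases release them from their precursors, and the bound receptor forms pairs with itself or with ERBB2, which has no ligand of its own. The pairs signal through adaptor proteins to the RAS and ERK kinases, which switch on early transcription factors and also genes that damp the same pathway. ERRFI1, also called MIG6, binds the kinase domain of EGFR and ERBB2, blocks it and helps to remove the receptor. In fibroblasts the pathway is known for its part in proliferation, migration and wound repair, and receptor ligands are known as genes that stressed cells raise.

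Libraries held 20261103 to 26287660 reads. All 8 fibroblast markers were present in every group, whereas EPCAM and CDH1, which define epithelial cells, reached at most 5.47 and 4.38 normalized counts, PECAM1 at most 1.14 and PTPRC at most 3.05. The keratins KRT8, KRT18 and KRT19 made up the rest of an epithelial list of 5, summing to 2087 to 2347 without tBHP and 1235 to 2189 with it, and the endothelial and leukocyte lists summed to at most 25.1 and 13.7. Normalized counts are reads divided by a size factor for the library. A pair of libraries taken after tBHP stood apart from the other 7 of that kind. In replicate 2 of the fNSF-HA group the median of the 10% of genes richest in GC lay 0.78 below the mean of the 9 libraries on the log2 scale, and in replicate 3 of the cNSF-HA group the median of the 10% with the longest transcripts lay 0.34 below it. Replicate 1 of the PBS group with tBHP deviated in GC as well, by less than the first of these and about as much as the second: their medians for the GC-rich genes lay 0.31 and 0.33 above the mean. Without that PBS library the same 4 members were called for a change with tBHP after PBS, and the log2 changes of ERBB2 (-0.11) and NRG1 (0.18) were not called.

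EGFR was the more abundant of the receptors and did not pass the test in any comparison. Its gene lies on the forward strand of chromosome 7, chr7:55019021-55211628 in GRCh38. Normalized counts were 6808, 6705 and 6843 in PBS cells, 6574, 6796 and 6654 after cNSF-HA, and 6739, 7043 and 6964 after fNSF-HA. With tBHP they were 6783, 6979 and 6298 after PBS, 6917, 6263 and 4109.6 after cNSF-HA, and 6776, 7698 and 5861 after fNSF-HA. The 9 libraries without tBHP lay close together around a median of 6796, and those with tBHP ranged from 4109.6 to 7698 around 6776. The tBHP response, the log2 change with against without tBHP, was -0.02 ± 0.13 (SE, n = 3 and 3) after PBS, -0.25 ± 0.13 after cNSF-HA and -0.04 ± 0.13 after fNSF-HA. Adjusted p was 0.901, 0.128 and 0.844 by limma, and the 95% intervals ran from -0.30 to 0.25, from -0.52 to 0.03 and from -0.31 to 0.24. The cNSF-HA value turned on replicate 3 after tBHP, the library poor in long transcripts: it was -0.02 without that library, and -0.40 (adjusted p = 0.0181) without replicate 1. EGFR, whose longest annotated transcript has 9821 bases, is itself in the 10% with the longest transcripts, which begin at 7721 bases. The antisense gene EGFR-AS1 reached at most 3.73 normalized counts, which the unstranded kit cannot separate from EGFR. No neighbours in the order of its 6 group means differed beyond their spread.

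ERBB2, the receptor that other family members recruit as a partner, fell after tBHP in fNSF-HA cells and did not pass the test in the other 2 pre-incubations. It lies at chr17:39687914-39730426 on the forward strand. Without tBHP the 9 libraries ran from 1540.2 to 1663 normalized counts with a median of 1589. With tBHP the values were 1689.8, 1492 and 1406 after PBS, 1479.9, 1518 and 1378 after cNSF-HA, and 1371, 1099.9 and 1491 after fNSF-HA. All 3 fNSF-HA libraries with tBHP were below all 3 without it, by 0.26 ± 0.09 on the log2 scale (adjusted p = 0.0272). The 3 cNSF-HA libraries with tBHP were also below the 3 without it, by 0.17 ± 0.09 (adjusted p = 0.141). Separate groups with and without tBHP were common: they did not overlap for 63.8% of all genes tested after PBS, 63.7% after cNSF-HA and 48.7% after fNSF-HA. The lowest value belonged to the fNSF-HA library poor in GC-rich genes, and 57.5% of the bases of ERBB2's longest transcript are G or C against a median of 47.9% over the genes tested. Without that library the change was -0.14 (adjusted p = 0.131), and the call held under 11 of 19 alternatives, being lost also with edgeR (-0.19, adjusted p = 0.123) and without any 1 of the 3 fNSF-HA libraries that had no tBHP. With the trend on GC content and length removed from every library, ERBB2 fell in all 3 pre-incubations, by 0.28 after PBS, 0.37 after cNSF-HA and 0.32 after fNSF-HA. The library kit does not mark strand, so reads of ERBB2 cannot be told apart from those of the overlapping parts of MIEN1 (509 to 844 normalized counts) and PGAP3 (97.9 to 183) on the other strand. None of the steps between neighbours in its order of means passed the test.

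**Figure D1:**
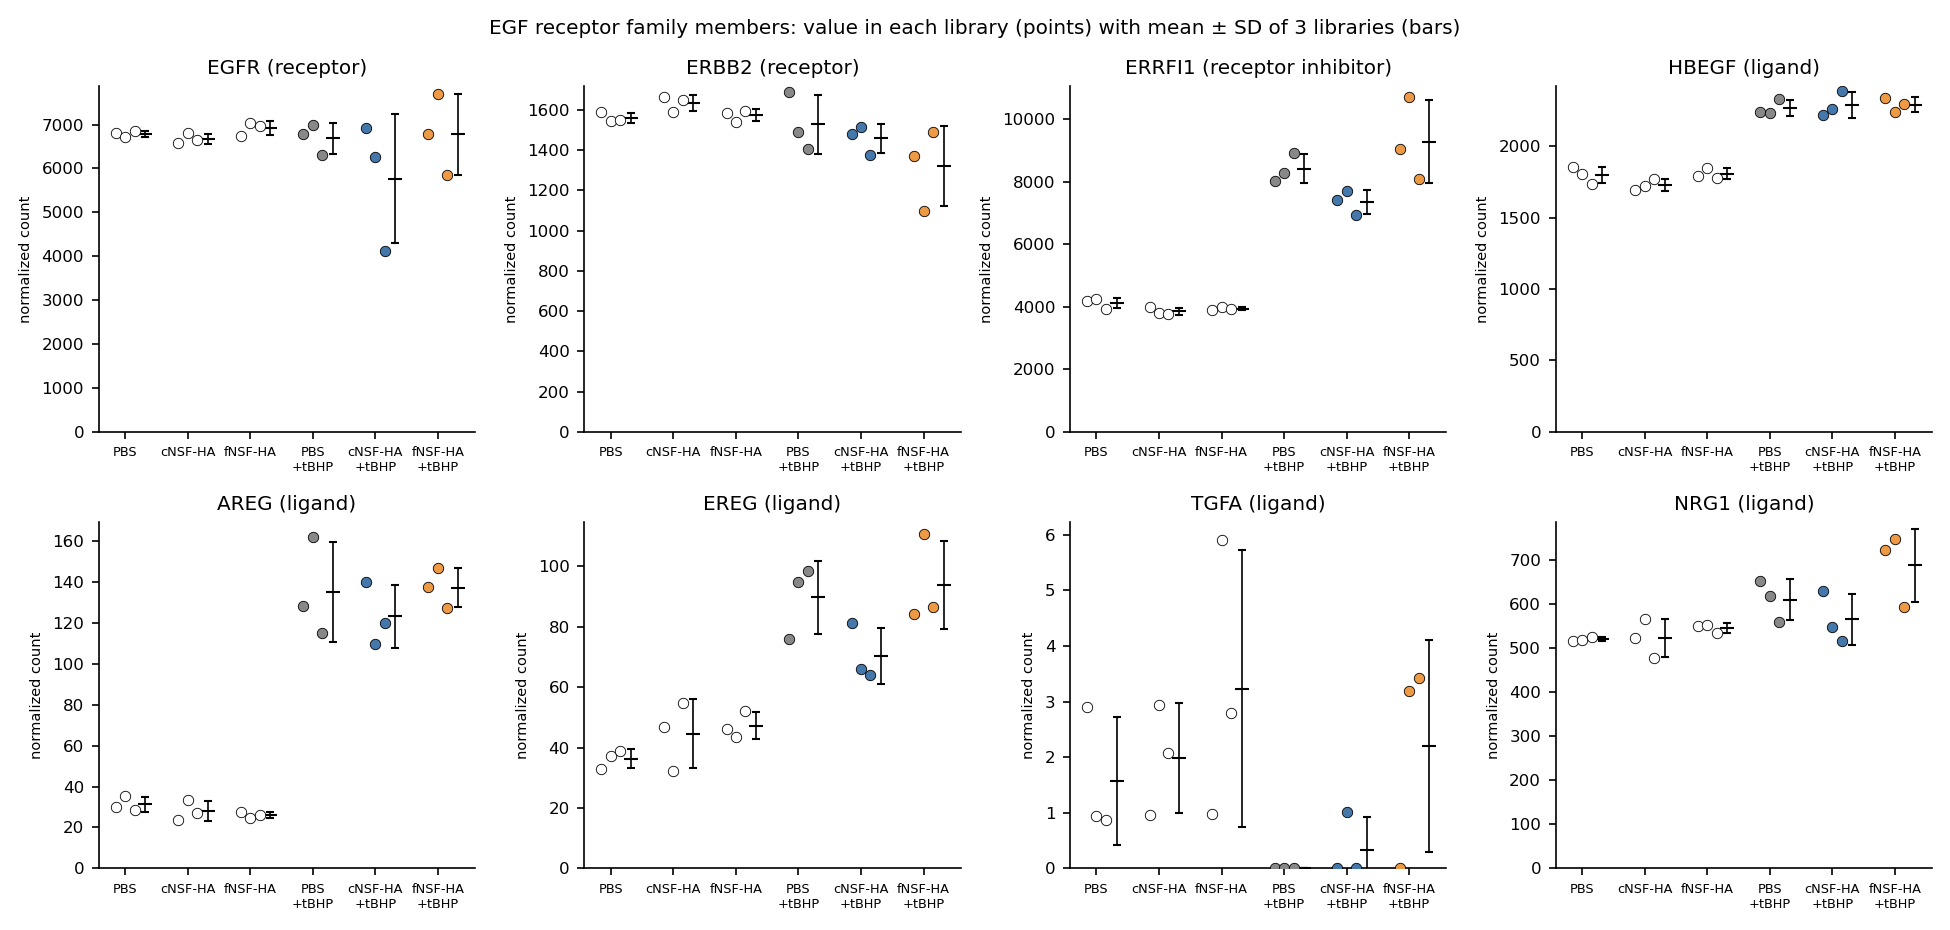
Normalized count of each member (y axis, from 0) in the 6 groups (x axis). Each point is 1 library, open without tBHP and filled with it, and the bar beside it is the mean ± SD of 3 libraries. AREG, HBEGF and ERRFI1 form 2 separate levels without and with tBHP, while the EGFR points with tBHP spread from 4109.6 to 7698 about a median of 6776.

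HBEGF encodes heparin-binding EGF, a ligand made as a membrane precursor, and it was the most abundant EGF receptor ligand among the members. It lies at chr5:140332843-140346631 on the reverse strand. Values without tBHP were 1853, 1805 and 1738 in PBS cells, 1695, 1719 and 1772 after cNSF-HA, and 1791, 1851 and 1779 after fNSF-HA. With tBHP they rose to 2240.2, 2235 and 2334, then 2217, 2263 and 2388, and 2341, 2238 and 2299. The lowest library with tBHP was above the highest without it, and the 9 libraries with tBHP spanned only 2217 to 2388. The rise was 1.26-fold after PBS (95% interval 1.16 to 1.37, adjusted p = 8.7e-05 by limma), 1.32-fold after cNSF-HA (1.22 to 1.44, adjusted p = 1.4e-05) and 1.27-fold after fNSF-HA (1.17 to 1.38, adjusted p = 9.1e-05). It was small, but it passed the test under all 19 alternative settings in each pre-incubation. In the order of the group means only 1 pair of neighbours differed, the lowest group with tBHP and the highest without.

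AREG, which encodes amphiregulin, changed most of the members. The deposited values were 29.9, 35.5 and 28.5 in PBS cells, 23.9, 33.2 and 26.9 after cNSF-HA, and 27.5, 24.6 and 26.1 after fNSF-HA. With tBHP they were 128, 162 and 115 after PBS, 140.2, 109.6 and 119.9 after cNSF-HA, and 138, 147 and 128 after fNSF-HA. Every library with tBHP held at least 105 AREG reads and every library without it at most 38. AREG rose 4.19-fold after PBS (95% interval 3.30 to 5.32, adjusted p = 1.6e-08), 4.30-fold after cNSF-HA (3.39 to 5.47, adjusted p = 1.5e-08) and 5.11-fold after fNSF-HA (4.02 to 6.49, adjusted p = 3.4e-09) by limma on log2(value + 1). The 3 responses overlapped in their intervals, and the gap between the lowest group with tBHP and the highest without it, 1.94 on the log2 scale, was the only step between neighbours that passed the test.

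EREG, which encodes epiregulin, rose less and with more scatter. Its values were 32.8, 37.3 and 38.9 in PBS cells, 46.8, 32.3 and 54.8 after cNSF-HA and 46.1, 43.4 and 52.2 after fNSF-HA. With tBHP they were 76.0, 94.7 and 98.5, then 81.2, 65.9 and 64.0, and 84.2, 111 and 86.6. No library with tBHP fell below the highest without it. The rise was 2.42-fold after PBS (95% interval 1.84 to 3.18, adjusted p = 2.2e-05), 1.59-fold after cNSF-HA (1.21 to 2.09, adjusted p = 0.00644) and 1.96-fold after fNSF-HA (1.49 to 2.57, adjusted p = 0.000451) by limma. The cNSF-HA call was lost without replicate 2 of the group without tBHP, whose value was the lowest of its 3 (log2 change 0.46, adjusted p = 0.0513). EREG is poor in GC, 36.1%, and once the trend on GC content and length was removed its responses were larger, 1.81, 1.16 and 1.28 on the log2 scale. Among neighbours in the order of means, cNSF-HA with tBHP and fNSF-HA without it differed, by 0.56 ± 0.19 (adjusted p = 0.0170).

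AREG and EREG are neighbours on the forward strand of chromosome 4, EREG at chr4:74365143-74388751 and AREG at chr4:74445134-74455009, with 56.4 kb between them. Further EGF-like ligand genes flank the pair. EPGN, before EREG, reached at most 4.38 normalized counts and BTC, 289.7 kb after AREG, at most 3.10, so of the 4 ligand genes of this cluster only the inner 2 were measured above the minimum mean of 10. The RefSeq table (GRCh38.p14) held start regions for 7 of the 8 members. Shown here are the 150 bases before the start of the 4 members that rose in all 3 pre-incubations, and of EGFR, which did not, with matches to any searched motif in capitals. The motifs were the cAMP response element TGACGTCA, the AP-1 site TGANTCA, the antioxidant response element core TGACNNNGC and the TATA box TATAAA, each on both strands of the 250 bases before the start. Positions, 5′ to 3′ along the gene's strand, are chr4:74444986-74445135 for AREG, chr4:74364995-74365144 for EREG, chr5:140346604-140346753 for HBEGF, chr1:8026310-8026459 for ERRFI1 and chr7:55018867-55019016 for EGFR.
AREG: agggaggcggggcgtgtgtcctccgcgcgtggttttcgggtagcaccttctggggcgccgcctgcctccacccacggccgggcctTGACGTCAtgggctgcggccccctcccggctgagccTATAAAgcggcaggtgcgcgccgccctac
EREG: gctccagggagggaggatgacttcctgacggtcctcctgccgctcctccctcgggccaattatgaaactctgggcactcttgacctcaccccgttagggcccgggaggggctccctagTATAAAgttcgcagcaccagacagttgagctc
HBEGF: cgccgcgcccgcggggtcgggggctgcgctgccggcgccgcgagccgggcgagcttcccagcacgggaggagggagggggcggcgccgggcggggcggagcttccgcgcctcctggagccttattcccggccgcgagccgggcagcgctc
ERRFI1: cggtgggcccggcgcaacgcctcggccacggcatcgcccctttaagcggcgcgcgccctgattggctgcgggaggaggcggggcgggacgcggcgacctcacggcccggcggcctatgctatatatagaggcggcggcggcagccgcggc
EGFR: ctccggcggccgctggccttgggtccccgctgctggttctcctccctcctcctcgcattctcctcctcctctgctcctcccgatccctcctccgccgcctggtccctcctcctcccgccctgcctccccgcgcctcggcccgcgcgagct

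The AREG start region held the full TGACGTCA, 65 to 58 bases before the start, and TATAAA 29 to 24 bases before it. EREG held TATAAA 32 to 27 bases before its start. Over 27305 genes of the same table, 1.77% held TGACGTCA in this window, 6.60% TGANTCA, 11.0% TGACNNNGC and 11.1% TATAAA. ERBB2, not shown, held the AP-1 match TGATTCA 222 to 216 bases before its start. Distances count from the RefSeq starts, which differ from the gene bounds given above. The RefSeq starts of ERBB2 and HBEGF lie inside those bounds. No searched motif was found in the windows of HBEGF, ERRFI1, EGFR or TGFA, which says only that these letters are not there.

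TGFA, the gene of transforming growth factor alpha, another EGF receptor ligand, was at the edge of detection. The 9 libraries without tBHP held 1 to 6 reads each, 21 in all, and those with tBHP 0 to 3 each, 7 in all. All 3 PBS libraries with tBHP were at 0, where a count of 0 allows up to 3 reads per library. Its mean was under 10, so it was left out of the tests above. With the filter dropped it was not called in any comparison, the 3 tBHP responses having adjusted p = 0.127, 0.169 and 0.668 by limma (unadjusted 0.0357, 0.0489 and 0.388 after PBS, cNSF-HA and fNSF-HA).

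NRG1, which encodes a neuregulin that binds ERBB3 and ERBB4, rose after tBHP in fNSF-HA cells and did not pass the test in the other 2 pre-incubations. It lies at chr8:31639386-32767959. Values were 518, 519.7 and 526 in PBS cells, 524, 566 and 479 after cNSF-HA and 550.2, 554 and 534 after fNSF-HA. With tBHP they were 653, 618 and 560.2, then 630.3, 549 and 517, and 723, 748 and 593. The groups with and without tBHP did not overlap after PBS or fNSF-HA, as held for 63.8% and 48.7% of all genes, and overlapped after cNSF-HA. The log2 response was 0.33 ± 0.10 after fNSF-HA (adjusted p = 0.0125 by limma), 0.23 ± 0.10 after PBS (adjusted p = 0.0645) and 0.11 ± 0.10 after cNSF-HA (adjusted p = 0.359). The fNSF-HA call was lost without replicate 1 after tBHP (0.29, adjusted p = 0.0565) and held under 17 of 19 alternatives. The PBS value passed under 8 of 19 alternatives, among them edgeR (0.29, adjusted p = 0.0165) and the fit without PBS replicate 3 after tBHP (0.29, adjusted p = 0.0397). With the trend on GC content and length removed NRG1 rose in all 3 pre-incubations, by 0.36, 0.32 and 0.41. No neighbours in the order of its means differed beyond their spread. The receptors that bind neuregulin directly were barely present, ERBB3 at 0.954 to 11.3 normalized counts and ERBB4 with 6 reads over all 18 libraries.

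ERRFI1, the inhibitor, was the most abundant member by length and about doubled. It lies at chr1:8004404-8026308 on the reverse strand. Normalized counts were 4175, 4259 and 3942 in PBS cells, 3988, 3808 and 3766 after cNSF-HA and 3911, 4003 and 3921 after fNSF-HA. With tBHP they were 8030.1, 8274 and 8931 after PBS, 7419, 7692 and 6949 after cNSF-HA, and 9045, 10716 and 8098 after fNSF-HA. All values with tBHP were far above all those without. The rise was 2.04-fold after PBS (95% interval 1.81 to 2.29, adjusted p = 1.3e-08), 1.91-fold after cNSF-HA (1.70 to 2.14, adjusted p = 5.2e-08) and 2.34-fold after fNSF-HA (2.08 to 2.63, adjusted p = 1.6e-09) by limma. The 3 cNSF-HA libraries with tBHP were the lowest 3 of the 9. Between neighbours in the order of means only the step from the groups with tBHP to those without passed the test.

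Counted together, 4 of the 7 tested members rose and 0 fell after PBS, where 24.2% of all 13686 genes tested rose and 26.9% fell. After cNSF-HA 4 rose and 0 fell, against 24.0% and 26.8% of all genes, and after fNSF-HA 5 rose and 1 fell, against 19.2% and 22.7%. The median log2 response of the 7 was 0.34, 0.40 and 0.34, and that of all genes 0.00, 0.00 and -0.03. HBEGF, AREG, EREG and ERRFI1 made up the 4 in each pre-incubation. Without both libraries that stood apart, an alternative added after seeing the data, 5 members rose and 0 fell after PBS, 4 and 0 after cNSF-HA, and 5 and 0 after fNSF-HA. Of all genes 30.7%, 26.9% and 26.9% then rose and 31.6%, 28.0% and 28.6% fell.

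**Figure D2:**
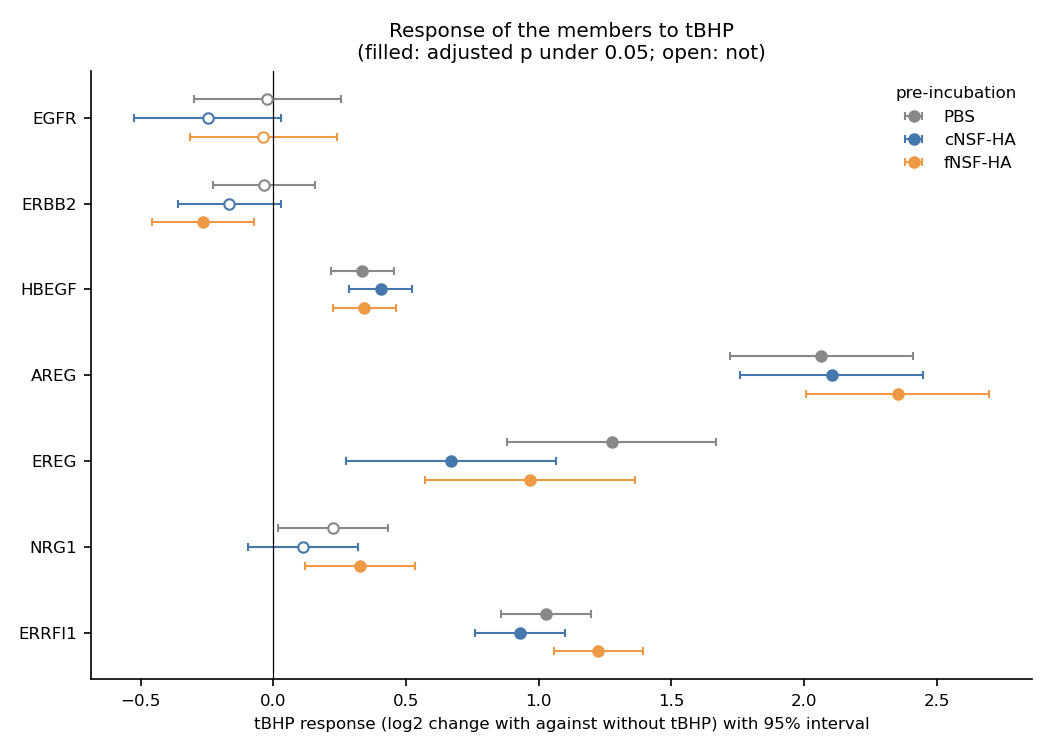
The tBHP response of each tested member (x axis, log2 change with against without tBHP, with its 95% interval) after PBS, cNSF-HA and fNSF-HA (colours). Filled points had an adjusted p under 0.05; AREG lies furthest right, at 2.07, 2.10 and 2.35, and the EGFR intervals all cross 0.

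Levels of different genes were compared per kilobase of annotated exon. In PBS cells without tBHP, ERRFI1 stood at 986 ± 39.2 normalized counts per kb (SD, n = 3), HBEGF at 596 ± 19.1, EGFR at 542 ± 5.71, ERBB2 at 151 ± 2.34, NRG1 at 46.0 ± 0.38, AREG at 19.0 ± 2.22 and EREG at 6.36 ± 0.55. Per kilobase, HBEGF made up 95.9% ± 0.34 (SD, n = 3) of the summed HBEGF, AREG, EREG and TGFA transcripts in PBS cells and 88.5% ± 1.74 with tBHP. AREG went from 3.06% ± 0.33 to 9.65% ± 1.72 of that sum. In the HA groups the AREG share with tBHP was 8.85% ± 1.18 after cNSF-HA and 9.69% ± 0.72 after fNSF-HA. The ratio of ERRFI1 to EGFR per kilobase was 1.82 ± 0.09 in PBS cells and 3.78 ± 0.40 with tBHP. The annotation that the files were counted on was not given in the sources used here, so lengths come from another release and the levels per kilobase carry that limit.

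Next, the HA pre-incubations were compared directly, to ask whether either form moved the receptor system before or after the oxidant. Before tBHP, none of the 7 members passed the limma test for cNSF-HA against PBS, fNSF-HA against PBS or cNSF-HA against fNSF-HA, and none had an unadjusted p under 0.05. Of all genes 0.0% were called in each of these comparisons, with 126, 109 and 206 genes at an unadjusted p under 0.05. These shares depended on how the spread was estimated: with only the groups compared in the fit, 0.0%, 0.153% and 7.16% of all genes were called, the last being 244 higher and 736 lower after cNSF-HA than after fNSF-HA. No member was called in that fit, by edgeR or by DESeq2. The log2 differences of the members lay between -0.16 and 0.26, -0.25 and 0.37, and -0.11 and 0.09 in that order. EREG in fNSF-HA cells had the highest, 0.37 with an interval from -0.03 to 0.76, and its 3 libraries were above the 3 PBS libraries. Groups did not overlap for 3 members in that comparison (AREG, EREG and NRG1), for 1 in cNSF-HA against PBS (ERBB2) and for 1 between the forms (HBEGF), against 14.0%, 15.2% and 25.0% of all genes. For HBEGF the intervals of all 3 comparisons lay between -0.18 and 0.13, and for ERRFI1 between -0.27 and 0.14.

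After tBHP, again 0 of 7 members passed in each comparison, and 1 had an unadjusted p under 0.05 for cNSF-HA against PBS, 1 for fNSF-HA against PBS and 3 for cNSF-HA against fNSF-HA. The shares of all genes called were 0.0%, 0.139% and 0.0%, with 1183, 3102 and 4412 genes at an unadjusted p under 0.05. Those numbers rested on single libraries. Without fNSF-HA replicate 2 the last pair was 1249 and 1183, and without PBS replicate 1 the fNSF-HA against PBS number was 1493. Without cNSF-HA replicate 3 the first and last were 557 and 2568. Other removals raised them: the first was 1923 without cNSF-HA replicate 1, and the last 6820 without fNSF-HA replicate 3. With only the groups compared in the fit, the first and last were 535 and 1001. DESeq2 called 0.0365%, 3.23% and 6.74%, the last being 302 higher and 621 lower after cNSF-HA than after fNSF-HA. ERRFI1 was 0.19 ± 0.08 lower on the log2 scale after cNSF-HA than after PBS (adjusted p = 0.558), and all 3 cNSF-HA libraries were below all 3 PBS libraries, where groups did not overlap for 9.57% of all genes. Between the forms of HA, ERRFI1 differed by -0.33 ± 0.08 (cNSF-HA minus fNSF-HA, adjusted p = 0.0981 by limma). Its groups and those of EREG did not overlap, and those of 13.4% of all genes did not either. NRG1 differed by -0.28 ± 0.10 (adjusted p = 0.0981), EREG by -0.41 ± 0.19 (adjusted p = 0.147), EGFR by -0.26 ± 0.13 (adjusted p = 0.176) and ERBB2 by 0.15 ± 0.09 (adjusted p = 0.240). The HBEGF difference was -0.00, with an interval from -0.12 to 0.12.

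These differences moved with single libraries. DESeq2 called ERRFI1 lower after cNSF-HA than after fNSF-HA (-0.33, adjusted p = 0.0242), 1 of the 6.74% of all genes it called, and edgeR did not (-0.31, adjusted p = 0.116). Without fNSF-HA replicate 3 after tBHP, ERRFI1 (-0.42, adjusted p = 0.00123), NRG1 (-0.38, adjusted p = 0.00558) and EGFR (-0.36, adjusted p = 0.0412) were called lower and ERBB2 (0.25, adjusted p = 0.0350) higher after cNSF-HA. The same fit called 40.8% of all genes, so 4 of 7 members stands near that background. It keeps fNSF-HA replicate 2, the library poor in GC-rich genes, as 1 of its 2 fNSF-HA libraries with tBHP. Against PBS, it called 29.4% of all genes, and among the members ERRFI1 (0.23, adjusted p = 0.0289) and NRG1 (0.27, adjusted p = 0.0406) higher and ERBB2 (-0.31, adjusted p = 0.0162) lower after fNSF-HA. Without fNSF-HA replicate 2 alone, the ERRFI1 difference between the forms was -0.22 and that of EREG -0.28. Without cNSF-HA replicate 3 alone they were -0.29 and -0.34. In the same order of libraries the difference was -0.16 and -0.03 for EGFR, 0.03 and 0.19 for ERBB2, and -0.22 and -0.22 for NRG1. Without both libraries that stood apart the differences shrank to -0.18 for ERRFI1, -0.22 for EREG, -0.16 for NRG1 and 0.07 for ERBB2, and EGFR turned to 0.06, none of them called.

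**Figure D3:**
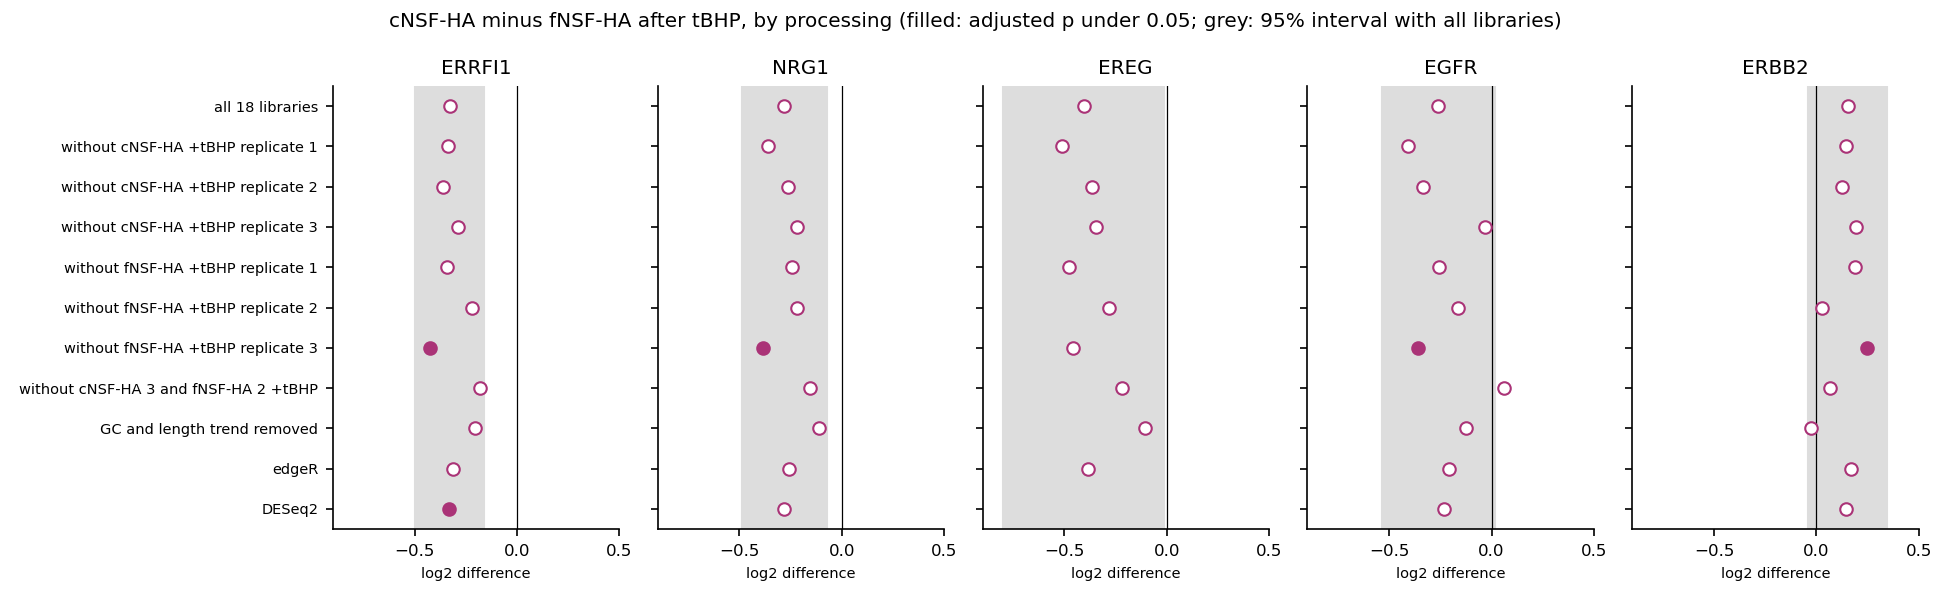
Difference between the forms of HA in cells given tBHP (x axis, log2, cNSF-HA minus fNSF-HA) for 5 members under 11 ways of processing (y axis). Filled points had an adjusted p under 0.05 and the grey band is the 95% interval with all 18 libraries; the filled points sit in the row without fNSF-HA replicate 3 and, for ERRFI1, in the DESeq2 row, and DESeq2 gave no adjusted p for EREG, which has no point there.

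The difference between tBHP responses was tested itself. No member passed for cNSF-HA minus PBS, fNSF-HA minus PBS or cNSF-HA minus fNSF-HA, where 0.0% of all genes were called in each, with 555, 942 and 533 genes at an unadjusted p under 0.05. EREG responded 0.60 ± 0.27 less on the log2 scale in cNSF-HA cells than in PBS cells (interval -1.16 to -0.05, adjusted p = 0.999 by limma) and ERRFI1 0.29 ± 0.11 less after cNSF-HA than after fNSF-HA (interval -0.53 to -0.06, adjusted p = 0.710). Without both libraries that stood apart these were -0.54 for EREG (interval -1.12 to 0.04) and -0.15 for ERRFI1 (interval -0.31 to 0.02). The HBEGF response differed by at most 0.07, and the outer limits of its 3 intervals were -0.16 and 0.24. AREG intervals were wider, from -0.74 to 0.78, and leave room for differences of that size. NRG1 and ERBB2, which passed in fNSF-HA cells and not in the others, were not shown to differ between pre-incubations, with adjusted p = 0.817 and 0.667 against PBS.

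The scatter among the libraries with tBHP was not the same for every member. In fNSF-HA replicate 2, which had the lowest median in GC-rich genes, EGFR (0.28 above the mean of the 9), ERRFI1 (0.37), EREG (0.40) and NRG1 (0.28) had their highest values of the 9 and ERBB2 (-0.38) its lowest. In cNSF-HA replicate 3, with the lowest median in long transcripts, EGFR (-0.62), ERRFI1 (-0.25), EREG (-0.38) and NRG1 (-0.25) had their lowest values. HBEGF deviated by -0.03 and 0.06 in these libraries. Removing the trend on GC content and length brought the ERRFI1 difference between cNSF-HA and fNSF-HA from -0.33 to -0.20 and that of NRG1 from -0.28 to -0.11. The part of GC content and length in the differences between HA groups was not tested beyond this.

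**Figure D4:**
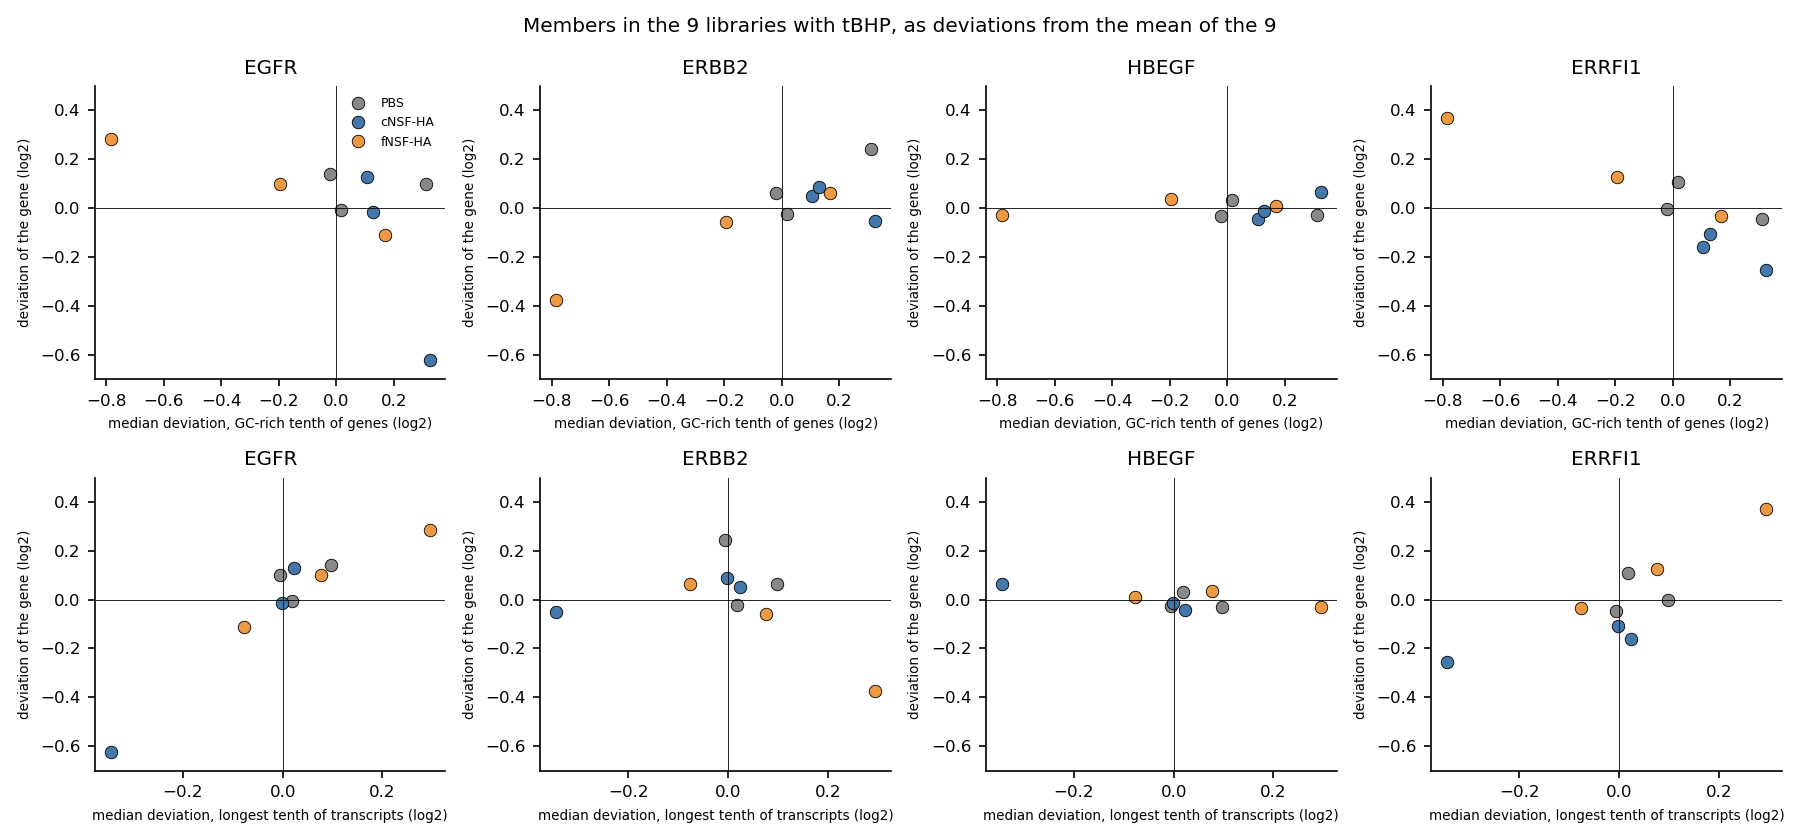
Deviation of EGFR, ERBB2, HBEGF and ERRFI1 (y axes, log2) in the 9 libraries with tBHP against the median deviation of the 10% of genes richest in GC (top row) and of the 10% with the longest transcripts (bottom row). Colours are the pre-incubations; the fNSF-HA library at -0.78 in the top row and the cNSF-HA library at -0.34 in the bottom row are the ones that stood apart, and HBEGF lies between -0.04 and 0.06 throughout.

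The wider pathway was read from a list of 65 further genes, of which 57 could be tested. The list was written with earlier results of these data known, so its shares are descriptions and not tests. With a PBS pre-incubation 28 rose and 12 fell (49.1% and 21.1% of the 57, against 24.2% and 26.9% of all genes). With cNSF-HA 29 rose and 12 fell, against 24.0% and 26.8% of all genes, and with fNSF-HA 19 rose and 4 fell, against 19.2% and 22.7%. The fNSF-HA counts were 29 and 11 without replicate 2 after tBHP, when 24.4% of all genes rose and 26.2% fell. With the trend on GC content and length removed 29 rose in each pre-incubation, and those that fell numbered 4 in each, against 28.3%, 28.2% and 27.6% of all genes rising and 29.5%, 28.4% and 28.6% falling. The list's median log2 response was 0.24, 0.26 and 0.18. None of the 57 passed in any comparison between pre-incubations or between responses.

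Most of the listed genes that ERK signalling is known to switch on rose, and how they were picked could have set that share. Of the 16 tested, 13 rose and 2 fell after PBS, 13 and 2 after cNSF-HA, and 9 and 2 after fNSF-HA, with medians of 0.61, 0.42 and 0.54. The rising counts are 81.3%, 81.3% and 56.3% of the 16, beside the shares of all genes just given. Without fNSF-HA replicate 2 the fNSF-HA count was 13 and 2, and without cNSF-HA replicate 3 the cNSF-HA count was 11 and 2. With the trend removed 10 rose and 1 fell after PBS, 9 and 1 after cNSF-HA, and 9 and 2 after fNSF-HA. ETV5, a transcription factor of the ETS family, rose 2.77-, 2.52- and 2.58-fold after PBS, cNSF-HA and fNSF-HA, from 1146 ± 37.3 to 3171 ± 45.1 normalized counts (SD, n = 3) in PBS cells. SPRY4, a Sprouty protein that damps receptor signalling, rose 2.24-, 2.12- and 2.20-fold, from 2481 ± 86.8 to 5555 ± 410.5. The 2 that fell in all 3 pre-incubations, named after their values were seen, were CCND1, the gene of cyclin D1, by 0.48, 0.56 and 0.61 on the log2 scale, and SPRED1, an inhibitor of the pathway, by 0.47, 0.46 and 0.45.

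In the smaller roles the counts are few, and a share such as 20% to 30% of the genes lies near that of all genes. Each is given beside its count with the trend on GC content and length removed. Of 10 genes other than ERRFI1 listed as receptor inhibitors and ubiquitin ligases, 4 rose and 4 fell after PBS, and 3 and 3 after cNSF-HA. After fNSF-HA 4 rose and 0 fell (4 and 3 without its replicate 2). With the trend removed these were 6 and 1, 5 and 1, and 6 and 0. LRIG1, a membrane protein that lowers receptor levels, rose 1.90-, 1.54- and 1.68-fold, from 726 ± 24.1 to 1384 ± 124 in PBS cells. RNF41, a ubiquitin ligase that targets ERBB3, rose 1.66-, 1.55- and 1.66-fold. Among the 6 genes of ligand release and transport, ADAM17, the protease that sheds HBEGF, AREG and TGFA, rose by 0.56, 0.43 and 0.59 on the log2 scale, while CNIH1, a cargo receptor of the early secretory route, fell by 0.57, 0.38 and 0.27. In this group 2 genes rose and 3 fell after PBS, 3 and 3 after cNSF-HA, and 1 and 2 after fNSF-HA (2 and 3 without its replicate 2), and with the trend removed 2 rose and 1 fell in each.

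Adaptors carry the signal from the receptor to RAS. Of the 8 genes listed as adaptors, 4 rose and 1 fell after PBS, and 3 and 2 after cNSF-HA. After fNSF-HA 3 rose and 0 fell (4 and 1 without its replicate 2). With the trend removed 5 rose and 0 fell in each pre-incubation, where 28.3%, 28.2% and 27.6% of all genes rose. GAB1 rose 1.65-, 1.49- and 1.75-fold and SHC1 1.56-, 1.46- and 1.43-fold. Of the 10 RAS to ERK genes, 3 rose and 2 fell, 4 rose and 2 fell, and 2 rose and 0 fell in the same order (4 and 2 in the last without fNSF-HA replicate 2), and with the trend removed 4 and 1, 3 and 1, and 3 and 1. MAP2K1, the kinase above ERK, rose 1.28-, 1.23- and 1.28-fold and MAPK3, an ERK gene itself, 1.27-, 1.29- and 1.22-fold. Of 6 genes of receptor endocytosis, 2, 3 and 0 rose and none fell, while 2 rose after fNSF-HA without its replicate 2 and 1 after cNSF-HA without its replicate 3. With the trend removed 2, 5 and 4 of them rose. Of 8 further receptors and ligands only EGF was tested, and it was not called. ERBB3, ERBB4, BTC, EPGN, NRG2, NRG3 and NRG4 were under the minimum mean of 10, as was SPRY1 among the ERK output genes.

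**Figure D5:**
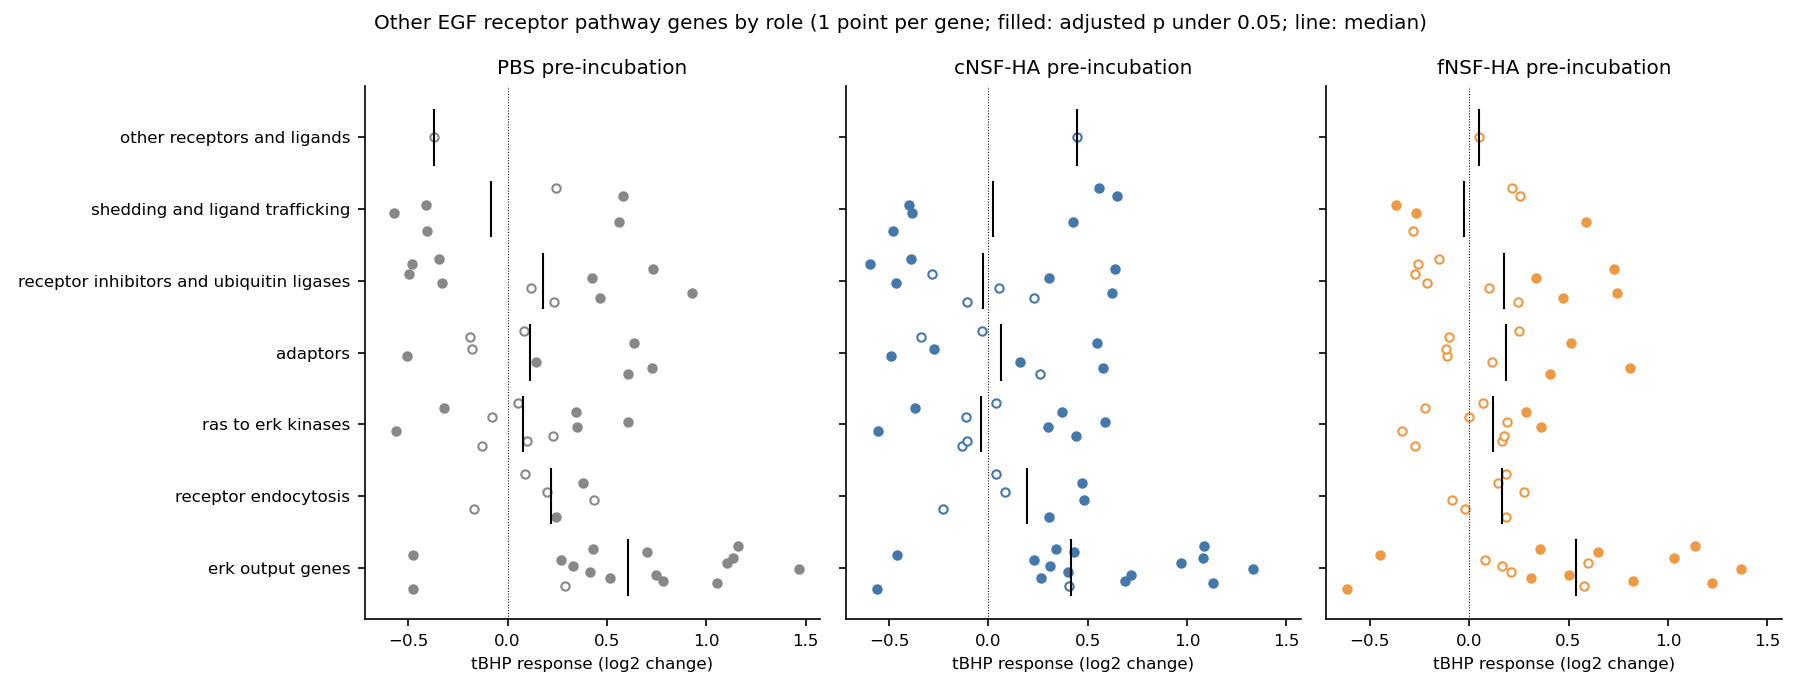
The tBHP response (x axis, log2 change) of the 57 tested pathway genes that are not members, by role (y axis), after each pre-incubation (panels). Each point is a gene, filled where the adjusted p was under 0.05, and the vertical line is the median of the role; the ERK output genes have the highest medians in PBS and fNSF-HA cells, 0.61 and 0.54.

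Genes whose pattern over the 18 libraries was most like each member's were listed by Pearson's r on log2(value + 1), among those with a mean of at least 100. These are descriptions, since the libraries share 2 levels of treatment and the deviations given above. For AREG the nearest were RDH10 (r = 0.990), ATF3 (0.990) and SDPR (0.989), and ATF3 is a transcription factor gene that many stresses raise. For ERRFI1 they were MDM2 (0.995), UGDH (0.994) and GK (0.994), and MDM2 encodes the main inhibitor of p53. HBEGF was most like PSMB2 (0.989), a proteasome subunit, PLIN2 (0.988) and ZFAND2A (0.988). EREG came nearest to KLHL24 (0.958), KLF6 (0.951) and DAB2 (0.942), and NRG1 to STXBP5 (0.917), KAT7 (0.884) and OSMR (0.878). EGFR tracked genes with long transcripts, AHNAK (0.985, 18787 bases), FAT1 (0.985, 14786 bases) and MACF1 (0.982, 24828 bases). ERBB2 tracked genes rich in GC, TBC1D9B (0.981, 58.2% GC), FLNA (0.980, 62.2%) and LRP5 (0.978, 62.8%).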

How the data were processed

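The deposited table held, for each gene and library, a signal that the authors made by dividing its reads by a DESeq2 size factor. Libraries were unstranded single-end reads of 100 bases. The submitters' processing notes name Trimmomatic 0.32, STAR 2.5.2b, featureCounts (Subread 1.5.0-p3), DESeq2 and GRCh38.p7. The deposited p-values and q-values of a comparison that is not named, and their ranking, were not used.

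Whole reads were recovered for 100.0% of values within 0.001. Genes with a mean of at least 10 (13686) were fitted with limma 3.58.1 in R 4.3.3 on log2(value + 1) with a mean-variance trend and 1 coefficient for each of the 6 groups, over 18 libraries. P-values were adjusted over all genes (Benjamini-Hochberg, threshold 0.05). Fold changes are on that scale and understate low genes. Intervals are 95%. Alternatives were edgeR 4.0.16 and DESeq2 1.42.0 on the recovered reads, other pseudocounts, filters and scalings, only the groups compared, a replicate block, removal of a trend on GC content and transcript length, and leaving out each library. On simulated counts for the PBS tBHP response (13686 genes, 200 of them changed 2-fold), limma called 84.0% of the changed genes, and 5.62% of its calls were false. For edgeR these were 82.0% and 5.75%, and for DESeq2 84.5% and 10.6%. The simulated libraries had independent counts and no shared deviation in GC content or length. These rates therefore cannot be carried over to the measured libraries.

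Gene positions, lengths and GC content came from GENCODE 29 (GRCh38). The 8 members, the pathway list and the markers were chosen with earlier results of these data known. Genes named from the pathway list were, per role, up to 2 with the largest change in PBS cells among those called in the same direction in all 3 tBHP responses. Like genes were the 3 with the highest r. Counting errors alone underlie the limit of 3 reads for a count of 0.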

Additional observations from a re-analysis of the deposited data

How the results depend on the processing

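The rises of HBEGF, AREG and ERRFI1 after tBHP kept their direction and their call in every pre-incubation under all 19 alternatives of each, and EREG did in all but 1 of 57. Over these, the log2 changes in PBS cells ranged from 0.21 to 0.40 for HBEGF, 1.93 to 2.17 for AREG, 1.19 to 1.81 for EREG and 0.96 to 1.21 for ERRFI1. Leaving out libraries singly gave 4 to 5 members called after PBS, 3 to 5 after cNSF-HA and 5 to 6 after fNSF-HA. After tBHP it gave 0 to 3 for fNSF-HA against PBS and 0 to 4 for cNSF-HA against fNSF-HA, where DESeq2 called 1, and 0 in the other comparisons between pre-incubations. The fits that called 3 and 4 members called 29.4% and 40.8% of all genes, and DESeq2 6.74%. Other pathway genes that rose in fNSF-HA cells numbered 18 to 29 on leaving out libraries singly, 29 with both libraries that stood apart left out, 29 with the trend on GC content and length removed and 30 with the replicate block added to that. Those that fell numbered 4 to 11, 12, and 2 with only the groups compared. With the trend removed, 4 genes fell after PBS and 4 after cNSF-HA, with or without the block. Replicate numbers did not pair the samples (45 correlations of deviations, -0.12 to 0.33), and the block left 5, 4 and 6 members called in the 3 responses. Of 84 pairs of a member and a comparison, 26 changed sign under at least 1 alternative, 3 of them tBHP responses (EGFR and ERBB2) and 23 differences between pre-incubations or responses. None of the 26 was called with all 18 libraries or where its sign turned. With edgeR, EGFR was 0.044 and ERBB2 0.0355 after PBS, and EGFR was 0.030 after fNSF-HA. Leaving out libraries singly gave -0.054 to 0.020 for EGFR and -0.11 to 0.024 for ERBB2 after PBS, and -0.13 to 0.063 for EGFR after fNSF-HA. For cNSF-HA against fNSF-HA with tBHP, EGFR was 0.063 without both libraries and ERBB2 -0.025 with the trend removed, with or without the block. DESeq2 gave no adjusted p for EREG there. The cause of these shifts was not tested. Depth limited TGFA, at 0 to 6 reads per library, and the ligands AREG and EREG before tBHP, at 25 to 56 reads.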
